A study of Homo sapiens with 6 samples.

Results

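The inhibitor of DNA binding genes ID1 to ID4, the inhibitory SMAD genes SMAD6 and SMAD7, the pseudoreceptor gene BAMBI and the ligand genes BMP2, BMP4 and BMP7 were followed in RNA sequencing of SW480, a line of cultured cells from a human colorectal adenocarcinoma. These 10 genes were chosen by symbol, and each symbol matched 1 of the 58735 genes of the table. Of the 6 libraries, 3 carry the label DDX39B overexpression and 3 are labelled control, with the genotype WT. All were grown in L-15 medium with 10% fetal bovine serum at 37 °C. The sources used here do not say how DDX39B was overexpressed, whether in a pool or a clone, or whether the 3 libraries of a group came from separate cultures, so p-values measure the spread between these libraries, which may be technical.

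Bone morphogenetic proteins (BMPs) are secreted ligands of the TGF-beta superfamily. They bind pairs of type I and type II receptor kinases, which phosphorylate SMAD1, SMAD5 and SMAD9, and these enter the nucleus with the shared partner SMAD4. In the intestine BMP signals oppose Wnt signals along the crypt axis. ID genes are classic targets of the pathway: their proteins have a helix-loop-helix domain but no DNA-binding region, and hold E proteins away from DNA. SMAD6, SMAD7 and BAMBI restrain the pathway at its receptors, and are induced by the signals that they restrain.

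DDX39B itself went against the labels. It measured 15.02, 13.9 and 14.03 FPKM (fragments per kilobase of gene, scaled for library size) with the overexpression label, against 39.3, 34.6 and 41.9 FPKM with the control label. DDX39B was 2.70-fold lower (limma adjusted p = 6.93e-06). The groups are therefore called by their labels, and every direction is drawn from the labels as given. Whether the labels were exchanged, or whether all libraries came from SW480, was not tested, and either would change what each difference below means. Library totals worked out from the FPKM values were 16963075 to 17463697 reads. The control-labelled libraries differed more among themselves: chi-square values per gene between pairs were 2.19 to 2.56 within the overexpression label and 8.08 to 36.9 within the control label, where replicates 2 and 3 were farthest apart. The median SD of log2 values was 0.0592 under the overexpression label and 0.128 under the control label. Mitochondrial reads made up 6.00% to 6.23% under the overexpression label and 4.26% to 5.02% under the control label, and their part in the results was not tested. Of 14 markers of colorectal epithelium, 9 averaged at least 1 FPKM under the overexpression label and 3 (KRT8, KRT18 and EPCAM) under the control label. CDX2, GPA33 and ASCL2 had 0 reads under the control label, though GPA33 had only 18 reads under the overexpression label. CDX1 had 0 reads in all 6 libraries. KRT20, which was not tested, went the other way, at 0.0610 FPKM under the overexpression label against 0.865 FPKM under the control label. KRT19 averaged 500.2 FPKM under the overexpression label and 0.251 FPKM under the control label. The summed level of these 14 markers was 2000 to 2023 FPKM with the overexpression label and 358 to 431 FPKM with the control label. The summed level of 10 fibroblast markers was 3.80 to 4.31 FPKM under the overexpression label against 4.50 to 8.45 FPKM under the control label. The 2 tested ones went opposite ways. COL1A1 averaged 1.21 FPKM under the overexpression label against 4.85 FPKM under the control label, and ACTA2 2.46 against 0.176 FPKM. For 8 endothelial markers the summed level was 1.06 to 1.48 FPKM under the overexpression label against 36.2 to 50.7 FPKM under the control label. ESAM was the single marker past 1 FPKM and made up most of the control-labelled sum, at a mean of 43.5 FPKM. VWF, which was not tested, went the other way, at 0.586 FPKM under the overexpression label against 0.0462 FPKM under the control label. KDR had 0 reads in all 6 libraries. For 10 leukocyte markers it was 1.41 to 2.11 FPKM under the overexpression label against 0.270 to 0.864 FPKM under the control label. Against that direction, CSF1R and PTPRC had 7 and 0 reads under the overexpression label and 46 and 5 under the control label. No reads of CD3D or MS4A1 were found. The part of these markers in the differences below was not tested.

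Nearly every gene of the set differed between the labels, and the ligand genes and the ID genes each exchanged places within their family. BMP4, BMP7, ID2 and BAMBI were higher under the overexpression label, BMP2, ID1, ID3 and SMAD6 were lower, SMAD7 did not pass the threshold, and ID4 was almost undetected. Of the 9 genes that reached the mean of 1 FPKM needed for the test, 8 passed an adjusted p of 0.05 in limma, a linear model fitted across all genes, with 4 higher and 4 lower. Differences were common in these libraries: 76.8% of the 13972 tested genes were called, with 37.5% of the tested genes higher and 39.3% lower, so the count of 8 of 9 lies close to what the whole table showed. All 8 also had log2 fold changes of size 1 or more, as did 31.2% of all tested genes. BMP2, ID3, BMP4 and BMP7 reached the test only through the label under which they were high, which favours a large change. These shares therefore give no result about the set. The groups did not overlap for the same 8 genes and for 80.1% of all tested genes. The median log2 fold change was 0.051 over the 9 genes and -0.029 over all tested genes.

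**Figure D1:**
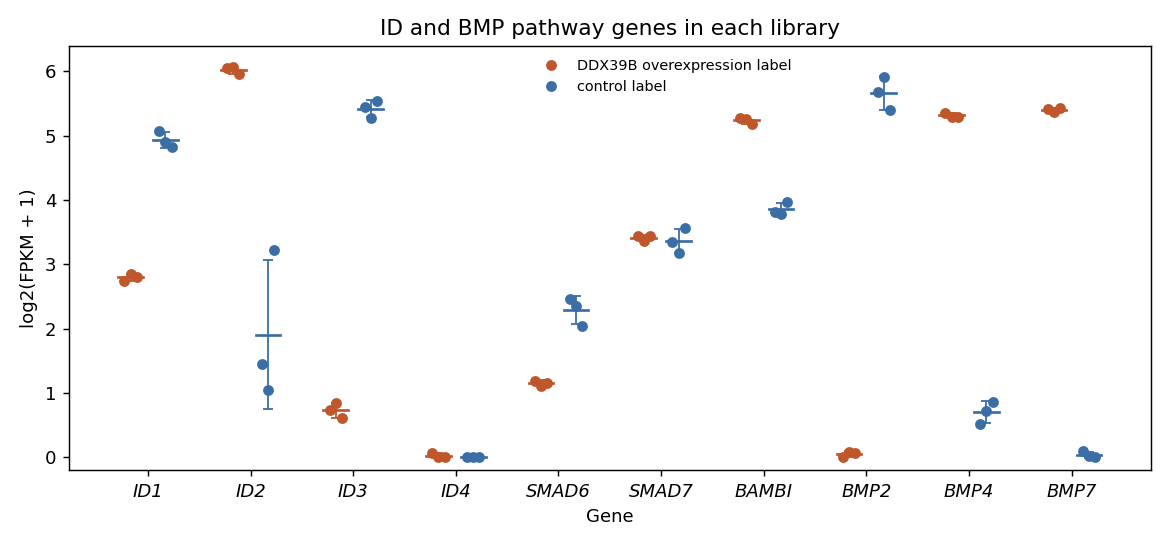
Level of each of the 10 genes in each library, as log2(FPKM + 1), with overexpression-labelled libraries left (orange) and control-labelled libraries right (blue) in each pair. Points are libraries, horizontal bars are means and error bars are SD (n = 3 each). The groups are apart for all genes but SMAD7 and ID4, and control-labelled replicate 3 stands above its group for ID2.

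BMP7 and BMP2 showed the widest differences of the 10 genes. BMP7 (ENSG00000101144, chromosome 20, 57168748 to 57266629, minus strand, GRCh38) encodes a ligand best known from bone and kidney development. It measured 41.6, 40.1 and 42.01 FPKM with the overexpression label, against 0.0679, 0.0109 and 0 FPKM with the control label. The gene was thus abundant in one group and nearly absent from the other, with 11962 reads under the overexpression label and 7 under the control label. BMP7 averaged 41.2 ± 1.01 FPKM with the overexpression label and 0.0263 ± 0.0365 FPKM with the control label (SD, n = 3 each), which is 1568-fold higher (95% counting interval 761 to 3901). Without control-labelled replicate 1 or 3 it was 7540-fold or 1045-fold higher. The log2 fold change on the FPKM + 1 scale was 5.36 ± 0.057 (SE) by limma, with an adjusted p of 9.83e-09, which ranked 33 among the 6835 tested genes with a positive change. That scale understates the change of a gene with so low a level in one group. In bulk RNA, fewer cells that express a gene and less RNA per cell cannot be told apart. The antisense gene BMP7-AS1 lies within BMP7 without sharing an exon base, and measured at most 0.390 FPKM.

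BMP4 (ENSG00000125378, chromosome 14, 53949736 to 53958761, minus strand), a ligand that the intestinal stroma and colorectal tumour cells are known to make, followed the same direction. It measured 40.002, 38.3 and 38.1 FPKM under the overexpression label and 0.438, 0.654 and 0.814 FPKM under the control label. The values of each group lay close together and far from those of the other. BMP4 was 61.1-fold higher (6403 reads under the overexpression label against 98 under the control label). By limma the log2 difference was 4.61 ± 0.092 (SE), with an adjusted p of 7.11e-08.

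BMP2 (ENSG00000125845, chromosome 20, 6767664 to 6780280, plus strand), the closest relative of BMP4, went the other way. It measured 0, 0.0615 and 0.0466 FPKM with the overexpression label, against 50.1, 59.3 and 41.0 FPKM with the control label. Among the 10 genes it was, with ID3, one of the 2 most abundant under the control label, and one of the 2 nearly absent ones under the other. The 7 reads of the overexpression-labelled libraries, against 9016 in the control-labelled ones, gave a level 1391-fold lower (95% counting interval 675 to 3461). Without overexpression-labelled replicate 1 or 2 it was 927-fold or 2150-fold lower. Its log2 fold change was -5.61 ± 0.13 (SE) by limma, with an adjusted p of 1.24e-07, with rank 20 among 7137 tested genes with a negative change.

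The summed level of BMP2, BMP4 and BMP7 was 78.4 to 81.6 FPKM under the overexpression label and 41.8 to 60.0 FPKM under the control label, without overlap. Over all BMP genes of the table from BMP2 to BMP15, without BMP1, which encodes a protease, the summed level was 87.8, 84.1 and 85.6 FPKM with the overexpression label and 80.7, 84.9 and 69.4 FPKM with the control label. These wider sums overlapped only through control-labelled replicate 2. The library size behind the FPKM values was 1.04 to 1.05 times the summed reads under the overexpression label, against 0.958 to 0.995 times under the control label. Scaling by summed reads would raise the first sums and lower the second, so this overlap may depend on the scaling. BMP4 and BMP7 made up 45.2% ± 0.626 and 48.04% ± 0.895 of the sum under the overexpression label, and 0.828% ± 0.319 and 0.0324% ± 0.0454 under the control label (SD, n = 3 each). BMP2 and BMP6 made up 0.0425% ± 0.0380 and 0.875% ± 0.236 under the overexpression label, against 63.7% ± 5.55 and 30.2% ± 5.16 under the control label. BMP6, a ligand known for its part in iron regulation, was outside the 10 genes and measured 1.000, 0.677 and 0.584 FPKM under the overexpression label, against 26.04, 20.6 and 23.6 FPKM under the control label. It was 31.1-fold lower (limma log2 difference -3.80 ± 0.12 SE, adjusted p = 4.37e-07). These shares are descriptions of FPKM, which is scaled for gene length, and were not tested.

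**Figure D2:**
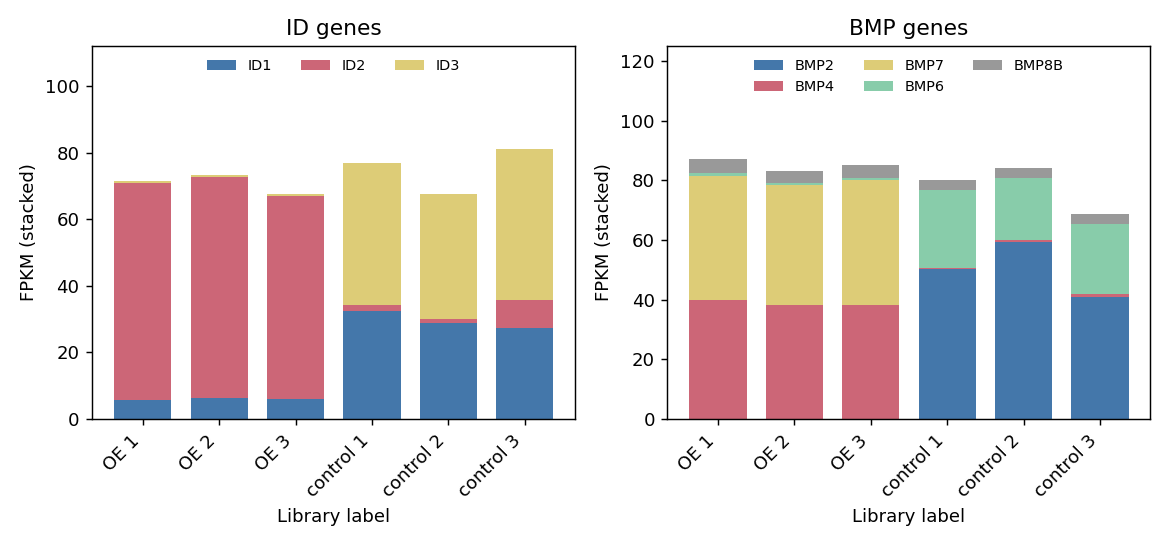
Stacked FPKM of ID1 to ID3 (left panel) and of the 5 most abundant BMP genes (right panel) in each library, with the overexpression-labelled libraries (OE 1 to OE 3) left of the control-labelled ones. The bar heights of the groups overlap in both panels, in the right panel only through control 2. ID2, BMP4 and BMP7 fill most of the bars on the left and ID1, ID3, BMP2 and BMP6 most of those on the right.

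Among 17 other genes of BMP, GDF and related ligands, 5 were tested, of which 3 were higher and 2 lower (median log2 fold change 0.23, mean -0.86). Over all tested genes 76.8% were called. Besides BMP6, GDF15, a stress-induced cytokine, was lower, at 15.95 ± 0.298 FPKM under the overexpression label against 121 ± 39.96 FPKM under the control label. AMH, the anti-Müllerian hormone gene, was 2.63-fold higher and GDF11, a ligand that signals through activin receptors, 1.92-fold higher. BMP8B was 1.23-fold higher (limma adjusted p = 0.0153), a call that was lost with the replicate number as a block (adjusted p = 0.0509) and without overexpression-labelled replicate 1 or 3 (0.0652 and 0.0633). Of the 12 untested genes, 5 had 0 reads in all 6 libraries, among them BMP3, BMP10 and BMP15.

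The ID genes were likewise divided in direction. ID2 (ENSG00000115738, chromosome 2, 8678845 to 8684453, plus strand) measured 65.2, 66.4 and 61.1 FPKM with the overexpression label, against 1.73, 1.07 and 8.37 FPKM with the control label. Every overexpression-labelled library was far above every control-labelled one, and replicate 3 stood above the other control-labelled libraries. ID2 was 17.2-fold higher (limma log2 difference 4.12 ± 0.53 SE, adjusted p = 0.000363). Without control-labelled replicate 3 the difference was 45.9-fold, with a log2 fold change of 4.78 ± 0.12 (SE) by limma, with an adjusted p of 8.72e-07. The coefficient of variation of ID2 was 4.32% with the overexpression label and 108% in the control-labelled group. The antisense gene ID2-AS1 shares 38 exon bases with ID2, and measured 2.70, 2.42 and 2.55 FPKM under the overexpression label, against 0.119, 0.0863 and 0.0870 FPKM under the control label. The sources used here do not say whether strand was used in counting, so reads of these overlapping bases cannot be told apart.

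ID3 (ENSG00000117318, chromosome 1, 23557918 to 23559794, minus strand) was close to the reverse of ID2. It measured 0.663, 0.801 and 0.530 FPKM under the overexpression label and 42.7, 37.7 and 45.3 FPKM under the control label. The groups were far apart, and ID3 was 63.04-fold lower (64 reads under the overexpression label against 3755 under the control label). Its log2 fold change was -4.69 ± 0.094 (SE) by limma, with an adjusted p of 7.14e-08. ID1 (ENSG00000125968, chromosome 20, 31605283 to 31606515, plus strand) measured 5.66, 6.20 and 5.99 FPKM under the overexpression label, against 32.5, 28.9 and 27.4 FPKM under the control label. It was lower in all 3 overexpression-labelled libraries, yet stayed measurable, at 4.98-fold lower (limma log2 difference -2.14 ± 0.076 SE, adjusted p = 7.59e-07). ID4 (ENSG00000172201, chromosome 6, 19837386 to 19840684, plus strand) had 2 reads, both in overexpression-labelled replicate 1, and 0 reads in the other 5 libraries. A count of 0 allows a level of up to 0.0709 to 0.0785 FPKM per library for this gene, so ID4 was not detectable at this depth in 5 of 6 libraries, and it was not tested.

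The summed level of the ID genes overlapped between the labels. ID1 to ID4 summed to 71.6, 73.4 and 67.6 FPKM with the overexpression label and to 76.9, 67.6 and 81.1 FPKM with the control label. ID2 made up 90.6% ± 0.406 of this sum under the overexpression label and 4.72% ± 4.87 under the control label (SD, n = 3 each). ID3 made up 0.933% ± 0.154 under the overexpression label against 55.7% ± 0.218 under the control label, and ID1 8.40% ± 0.482 under the overexpression label against 39.6% ± 5.05. under the control label These shares were not tested.

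The promoters of ID1, ID2 and ID3 are shown because these genes did not move together, and those of SMAD6 and BAMBI because they hold SMAD motifs. A BMP4 window that also holds such a motif is not shown. Each is the 250 bases before the RefSeq start on its own strand, from build GRCh38.p14, 5′ to 3′. Capitals mark the motifs searched: GTCTAGAC, a palindromic SMAD-binding element, GGCGCC, a GC-rich element of BMP targets, and the E-boxes CAGCTG and CACGTG, the kind of site that E proteins bind. Each motif reads the same on both strands, and none overlapped another.
ID1, chr20:31605039-31605288, plus strand: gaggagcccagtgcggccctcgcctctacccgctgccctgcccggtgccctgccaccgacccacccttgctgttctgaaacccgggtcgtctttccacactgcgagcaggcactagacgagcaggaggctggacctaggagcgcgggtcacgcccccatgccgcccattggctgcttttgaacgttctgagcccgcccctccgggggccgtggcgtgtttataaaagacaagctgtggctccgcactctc
ID2, chr2:8681806-8682055, plus strand: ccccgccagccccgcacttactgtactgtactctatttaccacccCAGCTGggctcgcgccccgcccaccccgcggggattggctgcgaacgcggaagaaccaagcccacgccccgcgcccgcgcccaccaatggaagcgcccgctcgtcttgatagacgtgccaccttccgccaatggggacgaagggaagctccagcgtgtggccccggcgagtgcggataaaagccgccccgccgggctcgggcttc
ID3, chr1:23559502-23559751, minus strand: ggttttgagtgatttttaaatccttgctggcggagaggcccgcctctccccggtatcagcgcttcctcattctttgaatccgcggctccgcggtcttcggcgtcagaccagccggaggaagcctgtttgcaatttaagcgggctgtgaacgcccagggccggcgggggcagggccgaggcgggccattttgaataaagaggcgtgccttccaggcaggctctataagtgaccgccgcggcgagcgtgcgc
SMAD6, chr15:66701986-66702235, plus strand: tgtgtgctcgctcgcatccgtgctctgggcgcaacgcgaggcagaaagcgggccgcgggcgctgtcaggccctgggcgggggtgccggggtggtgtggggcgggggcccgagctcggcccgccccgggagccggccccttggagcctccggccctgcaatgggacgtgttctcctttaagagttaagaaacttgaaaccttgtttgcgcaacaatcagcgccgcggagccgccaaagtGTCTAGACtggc
BAMBI, chr10:28677271-28677520, plus strand: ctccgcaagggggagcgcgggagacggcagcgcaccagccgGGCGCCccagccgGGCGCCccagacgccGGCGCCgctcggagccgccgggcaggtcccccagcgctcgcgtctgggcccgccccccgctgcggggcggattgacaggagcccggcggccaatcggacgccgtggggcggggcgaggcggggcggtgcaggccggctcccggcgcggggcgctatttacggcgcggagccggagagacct

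Of the 10 genes, 8 had windows in the RefSeq table, and BMP2 and BMP7 had none. GTCTAGAC was found in the SMAD6 window alone among these genes, 12 bases before the start, and 0.182% of the 35116 windows of the table hold it. GGCGCC was found 3 times in the BAMBI window and once in 1 of the 3 BMP4 windows, and 16.4% of all windows hold it. CAGCTG was found once each in the ID2 and ID4 windows (14% of all windows) and CACGTG once in another BMP4 window (6.34%). No motif of the 4 was found in the ID1, ID3 or SMAD7 windows, and bases outside the 250 of each window were not searched. The BAMBI window was 81.2% G or C, against a median of 58% over all windows, so the share for GGCGCC is not from windows alike in base content. The relation of these motifs to the differences between the labels was not tested. A match describes letters and does not show binding.

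The 3 inhibitors of the pathway each behaved differently. BAMBI (ENSG00000095739, chromosome 10, 28677342 to 28682939, plus strand) encodes a receptor-like membrane protein without a kinase domain. It measured 37.8, 37.4 and 35.1 FPKM with the overexpression label, against 13.1, 12.7 and 14.6 FPKM with the control label. The groups did not overlap and BAMBI was 2.73-fold higher (limma log2 difference 1.39 ± 0.067 SE, adjusted p = 2.98e-06). BAMBI is also known as a target of beta-catenin. SMAD6 (ENSG00000137834, chromosome 15, 66702228 to 66782848, plus strand), which acts mainly on BMP signals, measured 1.28, 1.16 and 1.24 FPKM under the overexpression label, against 4.49, 4.12 and 3.12 FPKM under the control label. It was 3.18-fold lower, with a log2 fold change of -1.13 ± 0.12 (SE) by limma, with an adjusted p of 0.000117.

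SMAD7 (ENSG00000101665, chromosome 18, 48919853 to 48952052, minus strand), which acts on both TGF-beta and BMP receptors, was the tested gene of the set that did not pass. It measured 9.88, 9.27 and 9.84 FPKM with the overexpression label and 9.13, 8.09 and 10.8 FPKM with the control label, and the groups overlapped. Its log2 fold change was 0.051 ± 0.10 (SE) by limma, with an adjusted p of 0.659, and the sign turned to -0.039 without control-labelled replicate 2. SMAD6 was below SMAD7 in all 6 libraries.

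The order of the genes by level differed between the labels. Under the overexpression label it was ID2, BMP7, BMP4, BAMBI, SMAD7, ID1, SMAD6, ID3, BMP2 and ID4, and each gene was apart from the next in all 3 libraries except BMP2 and ID4, whose values overlapped. Under the control label it was BMP2, ID3, ID1, BAMBI, SMAD7, SMAD6, ID2, BMP4, BMP7 and ID4. There BMP2 and ID3, SMAD6 and ID2, and BMP7 and ID4 overlapped, so their order was not clear. BAMBI and SMAD7 held the fourth and the fifth place in both.

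Around these genes, receptor and SMAD transducer genes differed in part. Of 13 receptor and co-receptor genes, 7 were tested, with 2 higher, 2 lower and 3 not past the threshold (median log2 fold change 0.14). The share called was 57.1%, against 76.8% of all tested genes. With array weights, by voom on reads or when FPKM values were rescaled by summed reads, 6 of the 7 were called. The share thus depends on the processing. BMPR2, the type II receptor gene, measured 8.993, 8.997 and 8.928 FPKM under the overexpression label and 3.16, 3.14 and 2.93 FPKM under the control label, and was 2.92-fold higher (limma log2 difference 1.29 ± 0.054 SE, adjusted p = 1.58e-06). The type I receptor gene ACVR1 was 2.78-fold higher, at 5.20 ± 0.208 under the overexpression label against 1.87 ± 0.396 FPKM under the control label. BMPR1A, the main type I receptor gene of the colon epithelium, measured 2.88 ± 0.0413 under the overexpression label against 3.09 ± 0.231 FPKM under the control label (SD, n = 3 each) and did not pass (limma adjusted p = 0.345), though it passed as lower with array weights (0.00264). ENG, the co-receptor endoglin, best known from endothelium, was 10.2-fold lower, at 2.53 ± 0.236 under the overexpression label against 25.8 ± 3.95 FPKM under the control label, and RGMB, a membrane-anchored BMP co-receptor, was 1.49-fold lower. ACVR2B and NEO1 did not pass here (limma adjusted p = 0.0793 and 0.0744), and passed when FPKM values were rescaled by summed reads (0.0275 and 0.0110).

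SMAD4 stood out among the SMAD genes. It measured 0.156, 0.135 and 0.0896 FPKM with the overexpression label, against 4.64, 4.39 and 4.53 FPKM with the control label. The common partner of the pathway was therefore detected at a low level under the overexpression label, with 89 reads under the overexpression label against 2959 under the control label. It was 35.7-fold lower, with a log2 fold change of -2.29 ± 0.070 (SE) by limma, with an adjusted p of 3.94e-07. SMAD2, which carries TGF-beta and activin signals, was 5.31-fold lower, at 1.07 ± 0.0756 under the overexpression label against 5.70 ± 0.398 FPKM under the control label. SMAD5 was 1.38-fold higher, at 10.9 ± 0.258 under the overexpression label against 7.91 ± 0.208 FPKM under the control label (limma adjusted p = 0.000278). SMAD1 measured 1.77 ± 0.197 under the overexpression label against 1.502 ± 0.0317 FPKM under the control label and SMAD3 8.47 ± 0.0983 under the overexpression label against 8.91 ± 2.04 FPKM under the control label, and neither passed (limma adjusted p = 0.141 and 0.785). SMAD3 was named after its values were seen. SMAD1 passed as higher with array weights (0.0380) and when FPKM values were rescaled by summed reads (0.0425). Of the 5 tested SMAD transducers 1 was higher and 2 were lower (median log2 fold change -0.045), so 60% were called, against 76.8% of all tested genes. SMAD9 was under the filter.

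Of 20 genes of extracellular antagonists and modulators, 9 were tested, of which 2 were higher and 7 lower. Their median log2 fold change was -2.28, against -0.029 over all tested genes, of which 76.8% were called and 39.3% were lower. With the replicate number as a block, and in 4 of the 6 fits without 1 library, 1 was higher and 7 lower. The median depends on the filter, since SMOC1, FST, FSTL1, TLL1 and NOG reached the test only through their control-labelled levels. With no filter on low values, 17 genes of the list were fitted, of which 4 were higher and 9 lower. Their median was then -0.26, against 0.015 over all genes fitted. SMOC1, a matrix protein that restrains BMP signalling, had 2 reads under the overexpression label against 23287 under the control label, at 0.00849 ± 0.00736 under the overexpression label against 107 ± 12.3 FPKM under the control label, a level 12584-fold lower (95% counting interval 3483 to 103913). FST, the follistatin gene, whose product binds activins and some BMPs, had 1 read under the overexpression label against 3689 under the control label. FSTL1, a secreted follistatin-like protein, measured 0.0299 ± 0.00963 under the overexpression label against 22.9 ± 5.31 FPKM under the control label. TLL1, a protease that releases BMPs from chordin, had 0 reads under the overexpression label against 2023 under the control label, and was at least 724-fold lower (floor of 3 reads over the group). The following were named after their values were seen. NOG, the noggin gene, whose product blocks BMP2, BMP4 and BMP7, was 6.00-fold lower, at 0.917 ± 0.172 under the overexpression label against 5.50 ± 1.32 FPKM under the control label. TWSG1, a modulator of chordin, was 3.37-fold higher. GREM1, a stromal antagonist, had 22 reads under the overexpression label against 15 under the control label and was not tested.

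**Figure D3:**
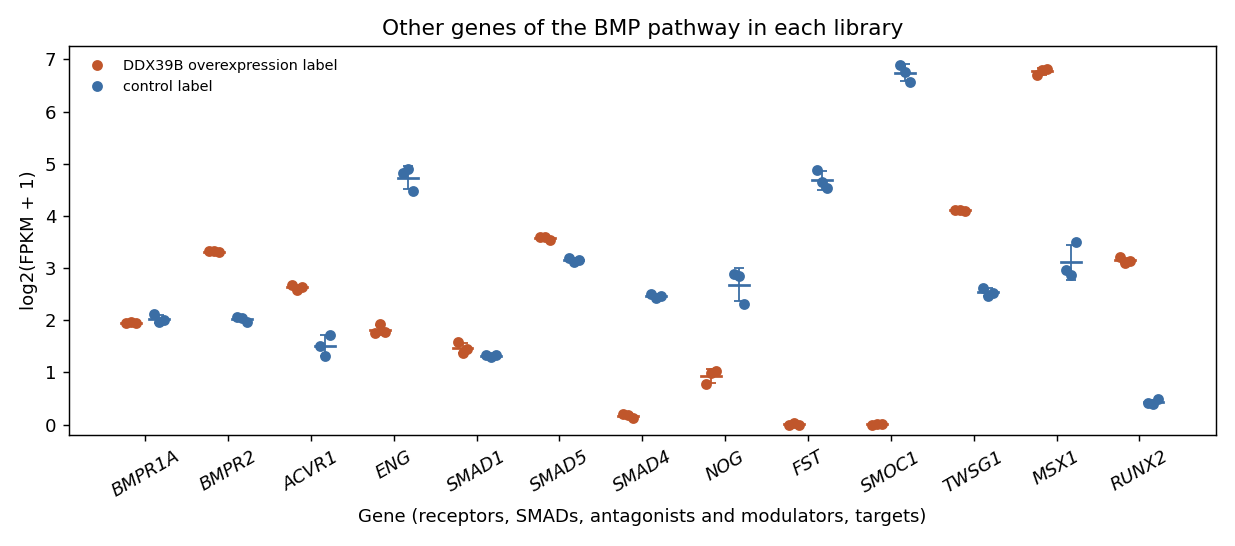
Levels of 13 other pathway genes in each library as log2(FPKM + 1), with overexpression-labelled libraries left (orange) and control-labelled libraries right (blue). Points are libraries, bars means and error bars SD (n = 3 each). BMPR2, ACVR1, SMAD5, TWSG1, MSX1 and RUNX2 lie higher, and ENG, SMAD4, NOG, FST and SMOC1 lower, under the overexpression label.

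Inside the cell, 12 of 13 regulators of SMAD signalling were tested, with 4 higher, 5 lower and 3 not past the threshold (median log2 fold change -0.16). The share called, 75%, was close to the 76.8% of all tested genes. The number called fell to 6, with 2 higher and 4 lower, without overexpression-labelled replicate 1 or control-labelled replicate 1. SMURF2, a ubiquitin ligase that SMAD7 recruits to receptors, was 4.32-fold higher, at 21.1 ± 0.591 under the overexpression label against 4.88 ± 0.570 FPKM under the control label. FKBP1A, which binds type I receptors and keeps them inactive, was 1.99-fold higher. TOB1, an antiproliferative protein known in mouse to restrain SMADs in bone cells, was 6.01-fold lower, at 11.1 ± 0.374 under the overexpression label against 66.5 ± 8.38 FPKM under the control label. SKI, a SMAD corepressor, was 1.60-fold lower.

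Other genes reported as BMP targets differed in both directions. Of 13 genes, 7 were tested, and 5 were higher, 1 lower and 1 not past the threshold (median log2 fold change 0.40), where 37.5% of all tested genes were higher. The weakest of these calls was TBX3, a T-box factor gene named after its values were seen, at a limma adjusted p of 0.04999. With the replicate number as a block, median-ratio scaling, no variance trend or without control-labelled replicate 1, 4 were higher and 1 lower. With rescaling to TPM 4 were higher and 3 lower, and without any 1 overexpression-labelled library 4 were higher and 2 lower. The counts depend on the filter, since RUNX2 and TBX2 reached the test only through their overexpression-labelled levels. TBX2 was named after its values were seen. With no filter on low values, 13 genes of the list were fitted, of which 5 were higher and 3 lower. Their median was then 0.20, against 0.015 over all genes fitted. MSX1, a homeobox gene, measured 102.7, 110.1 and 112.1 FPKM with the overexpression label, against 6.83, 6.32 and 10.3 FPKM with the control label. The groups were far apart, and MSX1 was 13.9-fold higher (limma log2 difference 3.66 ± 0.16 SE, adjusted p = 1.89e-06). RUNX2, the bone transcription factor gene, was 22.5-fold higher, at 7.89 ± 0.328 under the overexpression label against 0.350 ± 0.0464 FPKM under the control label. MSX2 was 2.17-fold higher, and DLX3, a homeobox gene of epithelial differentiation, 1.90-fold lower. Among the untested targets, ATOH8 and HEY1, named after their values were seen, had 62 and 26 reads with the overexpression label, against 391 and 260 reads with the control label.

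Partners and reported targets of ID proteins were measured too. Of 16 genes, 8 were tested, with 3 higher, 4 lower and 1 not past the threshold (median log2 fold change -0.38, mean 0.12). The share called was 87.5%, against 76.8% of all tested genes. ASCL2, a bHLH factor of intestinal stem cells and a Wnt target, had 2377 reads under the overexpression label against 0 under the control label and was at least 738-fold higher. HES1, a Notch effector, was 1.89-fold higher. The cell cycle inhibitor genes CDKN2A and CDKN1C were 3.61-fold and 3.75-fold lower. CDKN1A, another inhibitor gene of the list, named after its values were seen, was 1.41-fold higher (limma adjusted p = 0.0251), at 37.0 ± 0.810 FPKM under the overexpression label against 26.2 ± 6.57 FPKM under the control label. Without control-labelled replicate 1 or any 1 overexpression-labelled library, 2 genes of the list were higher and 4 lower. TCF3 and TCF12, which encode E proteins that ID proteins bind, were named after their values were seen, and were 1.73-fold and 1.56-fold lower.

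**Figure D4:**
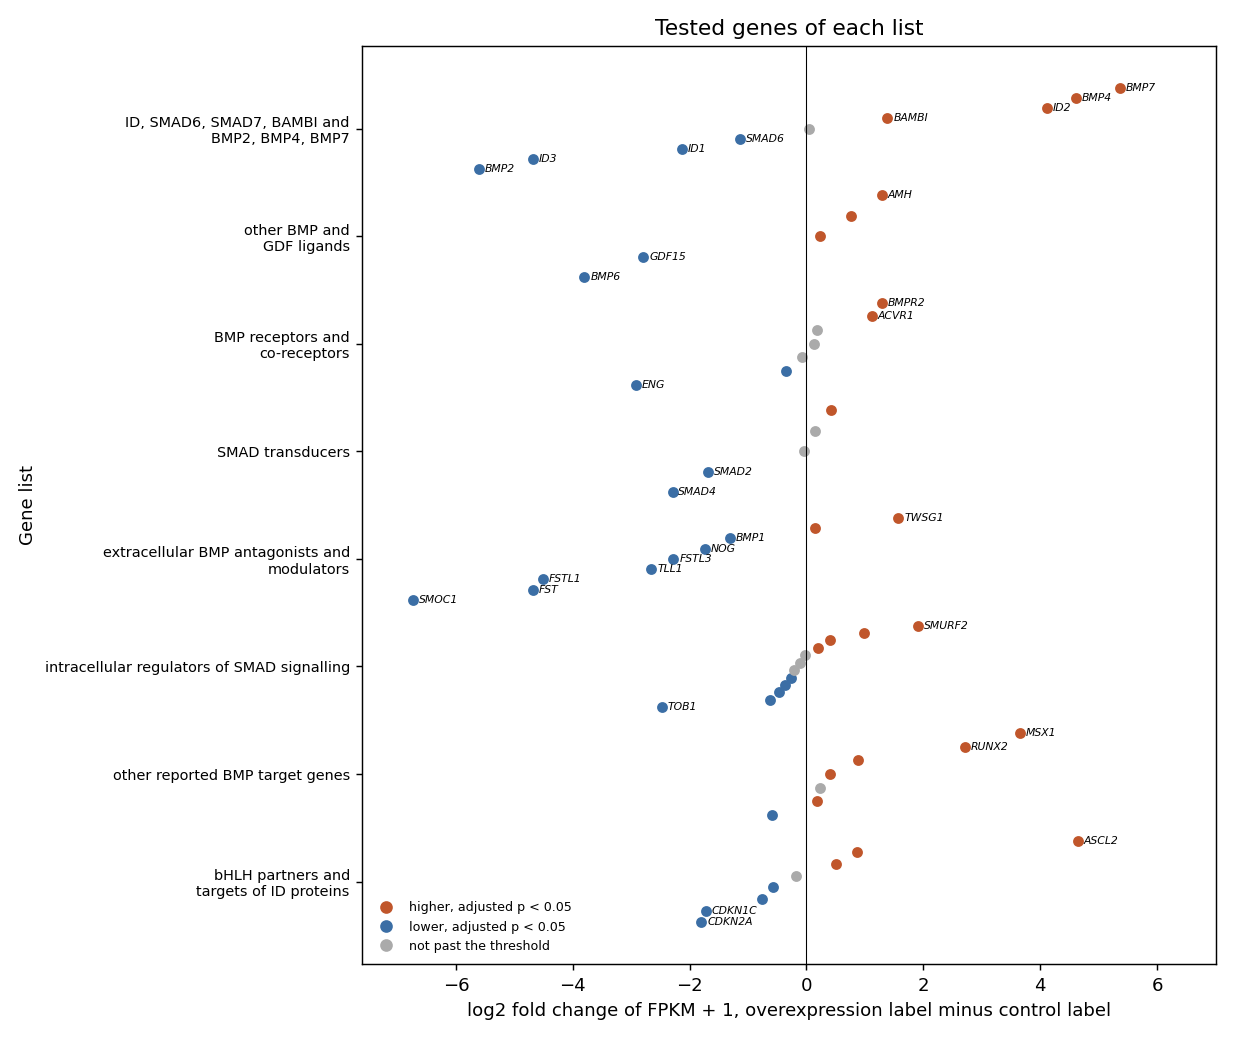
Log2 fold change (overexpression label minus control label, FPKM + 1) of each tested gene, by list. Orange points were higher and blue points lower at an adjusted p of 0.05, grey points did not pass, and genes past the threshold with a log2 fold change of at least 1 in size are named. The 10-gene set spans -5.61 to 5.36, and the tested genes of the list of extracellular antagonists and modulators lie mostly to the left.

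Genes with the pattern most like BMP7 and BMP2 were found by the smallest Euclidean distance over the 6 libraries and 2 conditions, on centred log2(FPKM + 1) values. Nearest to BMP7 were PDLIM4, which encodes a LIM domain protein (distance 0.0966), the gap junction gene GJB1 (0.113) and the ectodysplasin receptor gene EDAR (0.143). PDLIM4 measured 44.4 ± 0.741 under the overexpression label against 0.0633 ± 0.0450 FPKM under the control label. Nearest to BMP2 were the cyclooxygenase gene PTGS1 (0.152), TCIM (0.226) and RTL8C (0.280), with PTGS1 at 0.148 ± 0.0262 under the overexpression label against 54.5 ± 11.4 FPKM under the control label. With 2 conditions, such a distance reflects little more than the size of the difference between the labels.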

How the data were processed

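The authors deposited 1 table that holds FPKM and the length of each gene for 6 libraries. Per the labels' protocols, libraries were made from 1.3 µg of total RNA with a SMARTer mRNA kit. The sources used here name no aligner or counter. Per the submitters' processing notes the build was mm10, a mouse build, but all 58735 genes matched human GENCODE release 29 (GRCh38) in identifier, start, end and symbol. FPKM times gene length came out in whole reads, within 0.001 read, for 100% of values above 0, which gave the read numbers. No libraries held the same values.

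Values of log2(FPKM + 1) were tested with limma 3.58.1 (R 4.3.3), using a trended prior variance and the label as sole term, in two-sided tests over genes averaging at least 1 FPKM, with Benjamini-Hochberg adjustment over all genes tested and a threshold of 0.05. As the values are FPKM and not counts, no count test was the main one. Folds are ratios of mean FPKM. Counting intervals (exact Clopper-Pearson, 95%) and floors (3 reads) cover counting error alone, since amplified reads do not each stand for a molecule. The steps were tested on simulated data. There few genes were changed, by small folds, and the spread was the same in both groups, unlike in these libraries. The simulation therefore does not show how the steps perform on data such as these. The 10 genes, the lists and the tests were chosen with earlier results of these data known. Named were the 10 genes, ligands, receptors, SMAD1, SMAD4 and SMAD5, up to 4 called genes per list by size of change, and the 3 genes nearest to the extremes; others are marked. Alternatives changed the pseudocount, filter, scaling, variance model, unit (voom on reads) and libraries used, and added the replicate number as a block. FPKM recomputed on the sum of reads was chosen after seeing the data.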

Additional observations from a re-analysis of the deposited data

How the results depend on the processing

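ID1, ID2, ID3, SMAD6, BAMBI, BMP2, BMP4 and BMP7 kept their direction and their call under every alternative in which they were tested, SMAD6 being under the filter at a mean of 5 FPKM. The log2 fold change of BMP2 ranged from -10.6 to -5.48 and that of BMP7 from 5.31 to 11.1, with the largest sizes by voom on reads, a scale without the pseudocount of 1. SMAD7 turned sign without control-labelled replicate 2 (-0.039), and ranged from there to 0.15 over the libraries left out. Signs of genes that did not pass turned for BMPR1A (0.0067) when FPKM values were rescaled by summed reads, for SMAD1 (-0.0075) after quantile normalization, and for SMAD3 after quantile normalization (0.021), by summed reads (0.052) and over the libraries left out (-0.19 to 0.11). With a mean of at least 5 FPKM, 6218 genes of 7796 were called, as fewer were tested, and the counts called were 3 other ligands, 2 receptors, 1 SMAD transducer and 1 other target. With no filter, 10 other ligands and 7 receptors were called. No pair of same-numbered libraries deviated together (correlations -0.0217 to 0.0075). By voom on reads 10775 genes were called, against 10726 as reported. With the replicate block 10506 genes and 8 of the 9 tested members were called. In that fit 1 call each was lost among the other ligands (BMP8B, 4 called), the antagonists and modulators (8), the intracellular regulators (8) and the other targets (5). SMAD4 had 89 and BMP2 and BMP7 7 reads in the lower group, so depth limits their fold.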
